A study of Danio rerio with 11 samples.

Results

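The paired-box genes *pax3a*, *pax3b*, *pax7a* and *pax7b* and the Zic zinc-finger genes *zic1*, *zic2a*, *zic2b*, *zic4* and *zic5* were followed by RNA-seq across melanoma cells and melanocytes sorted from adult zebrafish. The 9 genes were chosen by symbol, and 8 of them were found among the 24441 genes of the deposited table. *pax7a* was not analysed here. Melanoma libraries (MA, n = 5) were made from GFP+ cells of tumors of BRAFV600E/p53lf/lf/crestin:EGFP fish. MA1 and MA2 were tumors of separate fish, whereas MA3A (near the dorsal fin), MA3B (tail) and MA3C (head) were tumors of 1 fish, so the 5 tumors stand for 3 fish. Premalignant melanocyte libraries (MC_Het, n = 3 fish) were made from mCherry+ skin cells of BRAFV600E/+/p53+/lf/mitfa+/-/mitfa:mCherry fish. Wild-type melanocyte libraries (MC_WT, n = 3 fish) were made from mCherry+ skin cells of AB* fish with mitfa:mCherry. No age beyond adult is given.

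BRAFV600E was driven by the *mitfa* promoter, which is active in pigment cell precursors and melanocytes, and lf is a loss-of-function allele of *p53*. The mCherry transgene of both melanocyte groups sat in the MiniCoopR vector, which also carries a *mitfa* minigene, and MC_Het fish in addition had a single intact *mitfa* allele. Melanoma cells were gated on a reporter of *crestin*, a gene of the embryonic neural crest, and melanocytes on a reporter of *mitfa*. The fish also differed in genotype, so tumor state, genotype, gate and source tissue cannot be told apart in any contrast of MA with melanocytes.

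In vertebrate embryos Pax3, Pax7 and Zic factors are switched on at the neural plate border, where they act together to specify the neural crest before Sox10, Foxd3 and Snail factors appear. Pax3 goes on to act with Sox10 upstream of Mitf in the melanocyte lineage of mammals, and Pax7 is needed for xanthophores, the yellow pigment cells of zebrafish. Both Pax factors are also known from muscle progenitors, and Zic factors from neural tissue. In teleosts most of these genes exist as duplicate a and b copies.

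Library totals recovered from the table were 14718024 to 22612463 reads, so that 1 read was worth 0.0442 to 0.0679 CPM (read counts scaled to the library total) and 3 reads, taken as the limit below which a level was not distinguished from 0, were worth 0.133 to 0.204 CPM. Levels are given as rescaled CPM, which is CPM divided by a factor per library (1.19 to 1.36 in MA and 0.685 to 0.889 in melanocytes). Marker genes agreed only in part with the sort: *mitfa* was at 133 to 178 rescaled CPM in MA and at 3.70 to 37.5 in melanocytes, with the lowest value in MC_Het3, whose *sox10* was also lowest at 3.97. The summed level of 10 measured keratinocyte genes was 154 to 533 rescaled CPM in MA and 60210 to 116400 in melanocyte libraries, led by *krt5* and *cldnb*. The same sum over 14 fibroblast and osteoblast genes, led by *col1a2* and *col1a1b*, was 41.8 to 179.9 in MA and 1109 to 5355 in melanocytes, and over 11 macrophage and T cell genes, led by *c1qb* and *mpeg1.1*, it was 31.1 to 247.6 in MA and 649 to 1815 in melanocytes. None of the keratinocyte, fibroblast and osteoblast or macrophage and T cell genes measured was at 0 in any melanocyte library. Since these are bulk libraries, fewer cells of a type and less RNA per cell cannot be told apart, and the part of other skin cells in the differences below was not tested.

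Melanoma and melanocyte libraries differed in which members of the set were high. *pax3a* was 28.2-fold higher on average in MA than in all melanocytes, while *pax7b* was 15.7-fold lower in MA than in all melanocytes. *zic2a* and *zic1* were also lower in MA, where *zic1* had no read in 4 of the 5 tumors. *zic4* was low in all groups and did not pass the test, and *pax3b*, *zic2b* and *zic5* were at or near 0 in most libraries. None of the 4 genes tested between MC_Het and MC_WT (*pax3a*, *pax7b*, *zic1* and *zic2a*) was called.

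**Figure D1:**
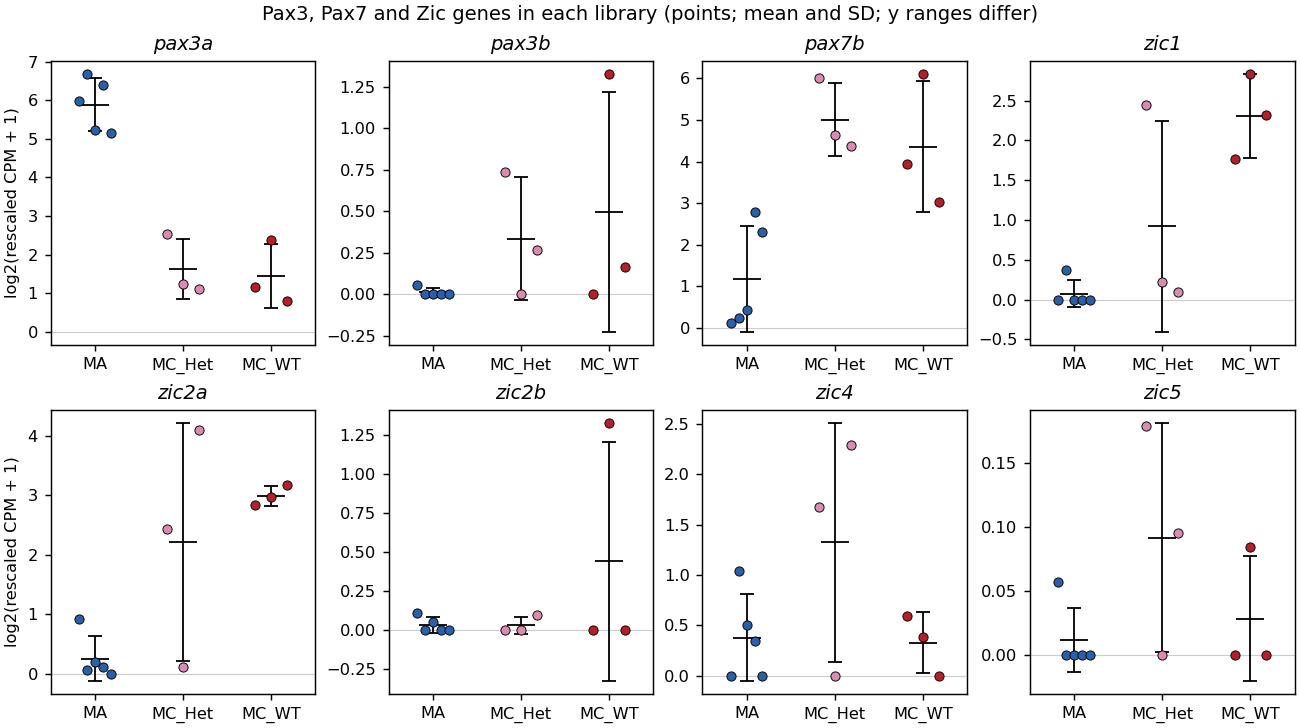
Level of each of the 8 measured genes in each library, as log2(rescaled CPM + 1) on the y axis, with a panel per gene and its own y range. Points are libraries of MA (n = 5), MC_Het (n = 3) and MC_WT (n = 3), and bars show the mean and SD of the log2 values. *pax3a* of all tumors lies above all melanocyte libraries, *pax7b* of all tumors lies below them, and *zic1* and *zic2a* of MC_Het are spread over the levels of the other groups, with *zic2a* of MC_Het3 above them.

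*pax3a* (ENSDARG00000010192) encodes the duplicate of Pax3 that carried nearly all Pax3 reads in MA, 8019 against 1 of *pax3b*. In all melanocytes it had 205 reads against 40 of *pax3b*, and in MC_WT2 70 against 25. Per kilobase of gene length, the levels in MC_WT2 were closer, at 1.45 against 1.05 rescaled RPKM. In MA *pax3a* had 61.7 rescaled CPM in MA1, 101.7 in MA2, 36.7 in MA3A, 82.8 in MA3B and 34.8 in MA3C. In MC_Het it had 4.78, 1.38 and 1.16 rescaled CPM, and in MC_WT 1.24, 4.23 and 0.724, in the order of the replicate numbers. All 5 tumors were above all 6 melanocyte libraries, a separation that 12.5% of all 14706 tested genes showed in the same direction.

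The mean level of *pax3a* was 63.6 ± 29.1 rescaled CPM in MA (SD, n = 5), against 2.44 ± 2.03 in MC_Het and 2.07 ± 1.89 in MC_WT (SD, n = 3 each). In a limma fit across all tested genes on log2(rescaled CPM + 1), *pax3a* rose in MA over all melanocytes by a log2 fold change of 4.35 (standard error 0.41, adjusted p = 3.96e-07, Benjamini-Hochberg). Fitted as 3 groups in limma, it rose over MC_Het by 4.26 (standard error 0.50, adjusted p = 1.04e-05) and over MC_WT by 4.44 (standard error 0.50, adjusted p = 7.15e-06). The same 5 tumors entered all of these contrasts, and the melanocytes of each genotype were also part of all melanocytes. The contrasts are therefore not separate evidence. The pseudocount of 1 shrinks folds of genes with low levels, and on whole reads edgeR gave a log2 fold change of 4.82 for *pax3a* over all melanocytes (adjusted p = 1.24e-05).

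Within MA the spread of *pax3a* was modest. The 3 tumors of the same fish differed by 2.38-fold between the highest and the lowest, and MA1 and MA2, from other fish, stood at 61.7 and 101.7 rescaled CPM. Per kilobase of gene length, *pax3a* reached 11.9 to 34.8 rescaled RPKM (CPM per kilobase) in MA, against 0.248 to 1.64 in melanocytes. By RPKM it ranked 1809th to 3810th of 24441 genes in MA and 10734th to 14431st in melanocytes.

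*pax3b* (ENSDARG00000028348), the other Pax3 duplicate, had 1 read in all 5 MA libraries together. In MC_Het it had 10, 0 and 3 reads, and in MC_WT 0, 25 and 2 reads. It was too low for the test. *pax3b* was thus close to absent from the tumors in which *pax3a* was high, and its few reads came from melanocyte libraries, most of them from MC_WT2.

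*pax7b* (ENSDARG00000070818) encodes a Pax7 duplicate. In MA it had 0.080 rescaled CPM (2 reads) in MA1, 0.168 (4 reads) in MA2, 0.342 (9 reads) in MA3A, 5.87 (153 reads) in MA3B and 3.96 (107 reads) in MA3C. In MC_Het it had 63.5, 23.9 and 19.8 rescaled CPM, and in MC_WT 14.4, 68.0 and 7.18. All 5 tumors were below all 6 melanocyte libraries, although MA3B (5.87) was near MC_WT3 (7.18), and 18.6% of all tested genes showed a separation of this direction.

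The mean level of *pax7b* was 2.09 ± 2.67 rescaled CPM in MA (SD, n = 5), against 35.8 ± 24.1 in MC_Het and 29.9 ± 33.3 in MC_WT (SD, n = 3 each). It fell in MA relative to all melanocytes by a limma log2 fold change of -3.52 (standard error 0.63, adjusted p = 0.000254). This fit took each tumor as a sample. Over all alternatives in limma, edgeR or DESeq2, fish averages and a fish block among them, the adjusted p was at most 0.00671. Relative to MC_Het limma gave -3.84 (standard error 0.76, adjusted p = 0.000935), and relative to MC_WT -3.19 (standard error 0.76, adjusted p = 0.00363). With MC_Het1 and MC_WT2 left out, which had the highest *pax7b*, the limma log2 fold change relative to all melanocytes was -2.86 (adjusted p = 0.00198), an alternative chosen after seeing the data.

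Tumors of the same fish differed more in *pax7b* than in *pax3a*. MA3B had 17.2-fold more *pax7b* than MA3A, and MA3A lay closer to MA1 and MA2 than to its fish mates. Melanocyte libraries differed by 9.48-fold between MC_WT2 and MC_WT3, a spread within MC_WT that was wider than the difference of the MC_Het and MC_WT means. Per kilobase, *pax7b* was at 0.036 to 2.60 rescaled RPKM in MA and at 3.17 to 30.1 in melanocytes.

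**Figure D2:**
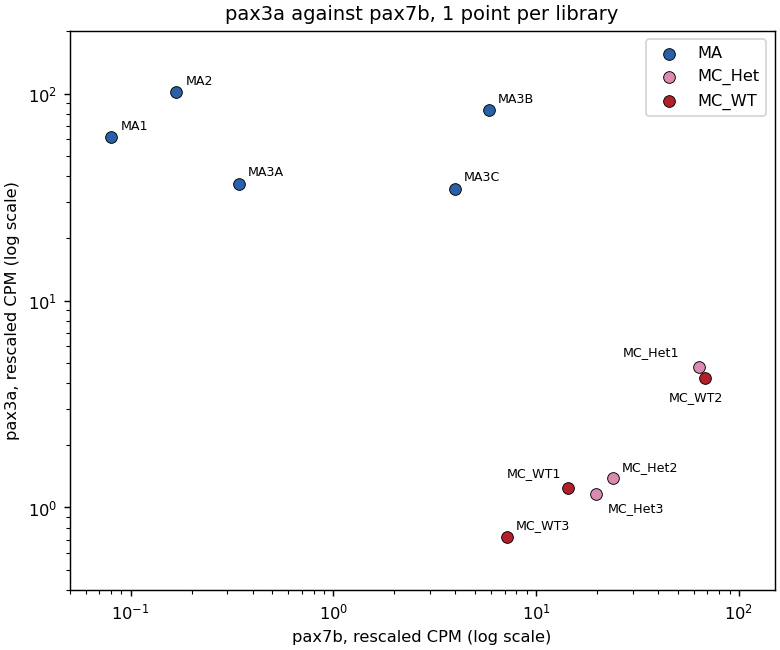
Level of *pax3a* (y axis) against *pax7b* (x axis) in rescaled CPM, both on log scales, with a labelled point per library of MA, MC_Het and MC_WT. The 5 tumors sit at the upper left, spread from 0.080 to 5.87 in *pax7b*, and the 6 melanocyte libraries sit at the lower right, with MC_Het1 and MC_WT2 highest in both genes among them.

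Set side by side per kilobase, the leading gene among the measured Pax3 and Pax7 genes was *pax3a* in MA and *pax7b* in melanocytes. Pax genes outside the set were not part of this comparison. In rescaled CPM, *pax8* was above *pax3a* in MA3A (136 against 36.7) and MA3C (45 against 34.8). *pax2a* was above it in MA1 (84.8 against 61.7) and MA3A (52.6). CPM does not account for gene length, so the order of these genes per kilobase is not given by these values. *pax3a* made up 87.2% to 99.8% of the summed *pax3a* and *pax7b* RPKM in MA, against 4.29% to 5.51% in MC_Het and 4.60% to 7.25% in MC_WT. In melanocytes this share held to a narrow range while the levels of the genes themselves varied by 6.60-fold for *pax3a* and 9.48-fold for *pax7b*. Both genes were above the limit of 3 reads in all 6 melanocyte libraries. In MA1, *pax7b* rested on 2 reads, which is below the 3 reads taken as the limit.

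MC_Het1 and MC_WT2, of different genotypes, stood out within their groups. They had the highest *pax7b* of the melanocyte libraries (63.5 in MC_Het1 and 68.0 in MC_WT2, against 7.18 to 23.9 in the other 4) and the highest *pax3a* (4.78 in MC_Het1 and 4.23 in MC_WT2, against 0.724 to 1.38). They also had the highest *pax3b*, at 0.664 in MC_Het1 and 1.51 in MC_WT2, and the highest *zic1*, at 4.45 in MC_Het1 and 6.10 in MC_WT2. *zic2a* did not follow this order, with 4.38 in MC_Het1 and 6.83 in MC_WT2 inside the range of the other 4.

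Markers of xanthophores and muscle were set beside the levels of the Pax genes. Among the 7 measured xanthophore genes, *aox5*, an aldehyde oxidase gene of xanthophores that was picked out here after its values were seen, had 0.201, 0.589, 0.874, 0.192 and 1.19 rescaled CPM in MA, against 60.3, 41.7 and 45.7 in MC_Het and 35.1, 73.2 and 50.01 in MC_WT. Its highest values were in MC_Het1 and MC_WT2, and it was lower in MA by a limma log2 fold change of -5.02 (adjusted p = 2.97e-09). The summed xanthophore list, which was dominated by *mycb* and *sox5*, was at 230.6 to 633 rescaled CPM in MA and at 425 to 822 in melanocytes, where MC_Het1 (692) and MC_WT2 (668) were the third and the fourth. The crest partner sum (757 in MC_Het1 and 676 in MC_WT2) and the iridophore sum (520.5 in MC_Het1 and 350.6 in MC_WT2) were highest in these libraries too. Relative to all melanocytes, 1 xanthophore gene rose in MA (*sox5*), 3 fell (*aox5*, *mycb* and *slc2a15a*) and 3 were not called. The uncalled genes were *slc2a11b* (log2 fold change 1.27), *pts* (-0.32) and *xdh* (-0.98). The list median log2 fold change was -0.98 beside 0.04 over all tested genes. *sox5* is also known from melanophores and *mycb* is a Myc gene, so these abundant members are not particular to xanthophores.

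The muscle list was measured in the same way. Its summed level over 17 measured genes was 14.2 to 50.4 rescaled CPM in MA and 91.7 to 302.7 in melanocytes, and of the melanocyte libraries with the most *pax7b*, MC_Het1 had the second highest sum (248.8) and MC_WT2 the lowest (91.7). Of its 9 tested genes, 0 rose and 6 fell in MA relative to all melanocytes, led by the contractile and energy genes *ckma* and *mylpfa*, and the list median was -1.89. The myogenic factor *myog* had 0 reads in all 11 libraries, *myod1* was at most 0.630 in MA and 1.59 in melanocytes, and *myf5* at most 0.380 in MA and 1.09 in melanocytes. Other genes of the list were higher, with *meox1* at most 24.9 in MA and 4.51 in melanocytes. *met* was at most 15.8 in MA and 12.5 in melanocytes. Neither was called, with log2 fold changes of 1.23 and 0.38. *lbx1a*, *six1b*, *cdh15* and *myf6* did not exceed 1.925 in any library. The part of xanthophores or muscle cells in the *pax7b* and *pax3a* levels was not tested beyond these values.

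*zic2a* (ENSDARG00000015554) was on average the most abundant Zic gene of the melanocyte libraries, in CPM and per kilobase. In MA it had 0.884 rescaled CPM (22 reads) in MA1 and 0.042, 0.152, 0.077 and 0 in MA2, MA3A, MA3B and MA3C. In MC_Het it had 4.38, 0.081 (1 read) and 16.2 rescaled CPM, and in MC_WT 6.14, 6.83 and 8.02. MC_WT was tight and clear of all tumors, whereas MC_Het ran across the full range of the data, with MC_Het2 among the tumors and MC_Het3 above all other libraries.

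The mean level of *zic2a* was 0.231 ± 0.369 rescaled CPM in MA (SD, n = 5), against 6.87 ± 8.32 in MC_Het and 7.0 ± 0.954 in MC_WT (SD, n = 3 each). It fell in MA relative to all melanocytes by a limma log2 fold change of -2.35 (standard error 0.54, adjusted p = 0.00212), and relative to MC_WT by -2.74 (standard error 0.64, adjusted p = 0.00329). On whole reads edgeR gave -4.88 (adjusted p = 0.00468) for all melanocytes. Relative to MC_Het the change in limma was -1.96 (standard error 0.64, adjusted p = 0.0227). That last call was lost without MC_Het3 (log2 fold change -1.02, adjusted p = 0.152) and without MC_Het1 (adjusted p = 0.0682), and also with the tumors of the MA3 fish averaged (adjusted p = 0.0816). Without MC_Het2 the limma log2 fold change was -3.04 (adjusted p = 0.000315).

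*zic1* (ENSDARG00000015567) had 0.294 rescaled CPM (7 reads) in MA2 and 0 reads in the other 4 tumors. In MC_Het it had 4.45, 0.162 (2 reads) and 0.068 (1 read) rescaled CPM, and in MC_WT 2.41, 6.10 and 3.98. All 3 MC_WT libraries were above all tumors, as for *zic2a*, which 24.6% of tested genes showed, but MC_Het2 and MC_Het3 were below MA2.

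The mean level of *zic1* was 0.059 ± 0.132 rescaled CPM in MA (SD, n = 5), against 1.56 ± 2.5 in MC_Het and 4.17 ± 1.85 in MC_WT (SD, n = 3 each). The fall in MA relative to MC_WT had a limma log2 fold change of -2.23 (standard error 0.48, adjusted p = 0.00172). Relative to all melanocytes it was -1.54 (standard error 0.47, adjusted p = 0.0129 in limma), a call that was lost with the tumors of the MA3 fish averaged (adjusted p = 0.0621), and edgeR on whole reads gave -5.49 (adjusted p = 0.00843). Relative to MC_Het the limma log2 fold change was -0.84 (adjusted p = 0.164), with a 95% interval of -1.87 to 0.18. On whole reads, edgeR gave -4.62 (adjusted p = 0.0290) for the same contrast and DESeq2 -4.76 (adjusted p = 0.0108), so the call for *zic1* against MC_Het depended on the test. The limma log2 fold change rested on MC_Het1, without which it was -0.084 (adjusted p = 0.870), and it was -1.21 without MC_Het2 and -1.27 without MC_Het3. edgeR and DESeq2 were not rerun with a library left out. The pseudocount bounds the limma fold of a gene that is at 0 in most tumors.

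*zic4* (ENSDARG00000031307) is the neighbour of *zic1* in the RefSeq annotation of assembly GRCz12tu, as *zic5* is of *zic2a*, an arrangement in gene pairs that is general in vertebrates. It had 0, 1.05, 0.418, 0.269 and 0 rescaled CPM in MA, against 2.19, 0 and 3.90 in MC_Het and 0.511, 0.302 and 0 in MC_WT. The groups overlapped throughout, and *zic4* did not follow its neighbour: MC_Het3, with 1 read of *zic1*, had the highest *zic4*. The limma log2 fold change of MA was -0.45 (adjusted p = 0.383) relative to all melanocytes, -0.95 (adjusted p = 0.101) relative to MC_Het and 0.05 (adjusted p = 0.936) relative to MC_WT. Without MC_Het2 the value relative to MC_Het was -1.63 (limma adjusted p = 0.00466). Whether the counting used strand is not given in the sources used here, so reads of overlapping neighbours could not be told apart.

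*zic2b* (ENSDARG00000037178), the duplicate of *zic2a*, had 2, 0, 1, 0 and 0 reads in MA, 0, 0 and 1 in MC_Het and 0, 25 and 0 in MC_WT. *zic5* (ENSDARG00000016022) had 1 read in MA, 3 in MC_Het and 1 in MC_WT. Both were below the limit for the test. *zic5* did not exceed 2 reads in any library, so no difference was detectable at this depth, and *zic2b* was above the 3-read limit in MC_WT2 alone.

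**Figure D3:**
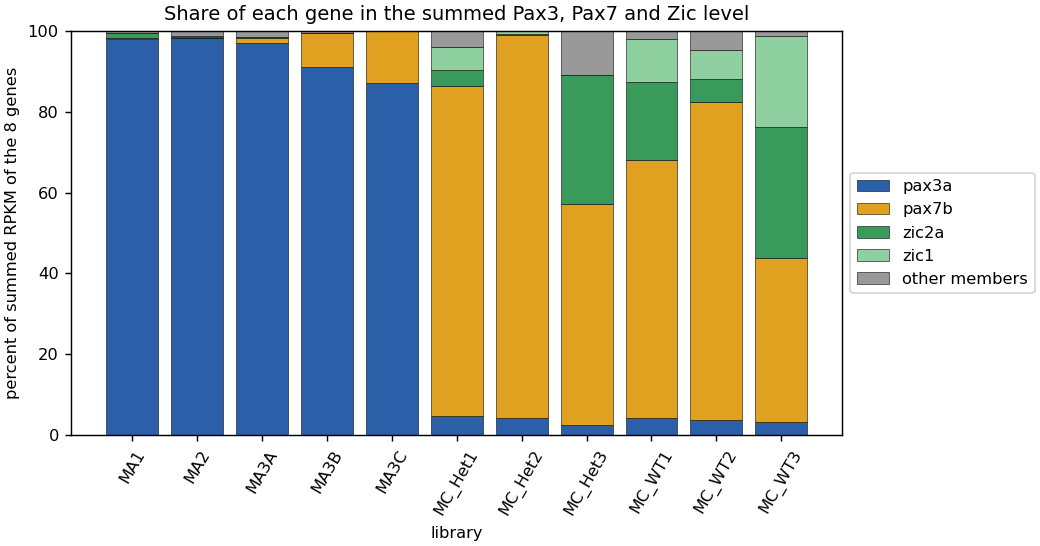
Share of each gene in the summed rescaled RPKM of the 8 measured genes (y axis, percent), with a bar per library in the order MA, MC_Het, MC_WT. *pax3a* fills 87.2% or more of each tumor bar, *pax7b* is the largest share of each melanocyte bar, and the Zic share of melanocytes runs from 0.875% in MC_Het2 to 55.0% in MC_WT3.

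Per kilobase, the 5 Zic genes together made up 0% to 1.75% of the summed level of the set in MA and 0.875% to 55.0% in melanocytes. Their summed level was 0 to 0.555 rescaled RPKM in MA, 0.097 to 6.69 in MC_Het and 3.20 to 5.61 in MC_WT. MC_Het2 thus lay with the tumors in its Zic level while its *pax7b* and *pax3a* were those of the other melanocyte libraries. The sum over all 8 genes was 13.0 to 35.5 rescaled RPKM in MA and 7.79 to 38.2 in melanocytes, overlapping ranges, so the groups differed in composition and not clearly in the total.

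Neural genes, as markers of another tissue with Zic expression, did not move in a single direction. Of 8 tested genes, 2 rose (*elavl4* and *sox2*), 2 fell (*sox3* and *sox19a*) and 4 were not called in MA relative to all melanocytes, *tubb5* among them, with a list median of 0.48. The summed level over 13 genes was 25.3 to 182.8 rescaled CPM in MA and 122.7 to 304 in melanocytes, where it came largely from *sox3* (0.080 to 2.04 in MA, 80.0 to 284 in melanocytes). *neurod1* had no reads in any melanocyte library, *neurog1* was at most 0.060 there and *elavl3* at most 0.483. Other genes of the list were higher, with *nova2* at most 24.6 in melanocytes, *tubb5* 21.3, *sox19a* 17.1 and *elavl4* 5.845. The rest were at most 2.94 (*gfap*), 2.70 (*map2*), 2.59 (*snap25a*), 2.19 (*sox2*) and 0.967 (*stmn2a*) there. *sox3* was high in MC_Het2 (262) as in MC_Het3 (284), which had 0.081 and 16.2 rescaled CPM of *zic2a*. *gfap* and *sox2* were also highest among melanocyte libraries in MC_Het3 (2.94 and 2.19), and both were at 0 in MC_Het2. None of the other genes of the list was highest in MC_Het3. The part of neural cells in the Zic levels was not tested further.

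In total, 4 of the 5 genes of the set that passed the filter of at least 1 CPM in at least 3 libraries were called in MA relative to all melanocytes, namely 1 higher and 3 lower, where a call asked for a log2 fold change beyond 1 with an adjusted p under 0.05. Of all 14706 tested genes 43.9% were called by this rule, 18.6% higher and 25.3% lower. Relative to MC_Het 3 of 5 were called (1 higher, 2 lower), beside 42.3% of all genes (18.1% higher, 24.2% lower), and relative to MC_WT 4 of 5 (1 higher, 3 lower), beside 41.3% (17.2% higher, 24.1% lower). *zic1* reached 1 CPM in 0 tumors, *zic2a* in 1 and *pax7b* in 2, so these 3 passed the filter only with melanocyte libraries, and these counts carry no weight beyond the values of each gene. At an adjusted p under 1e-6, *pax3a* alone was called relative to all melanocytes, where 5.18% of all genes were. With a single library left out, its limma adjusted p ranged from 4.41e-07 to 3.56e-06, so this stricter call did not hold in all such fits.

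**Figure D4:**
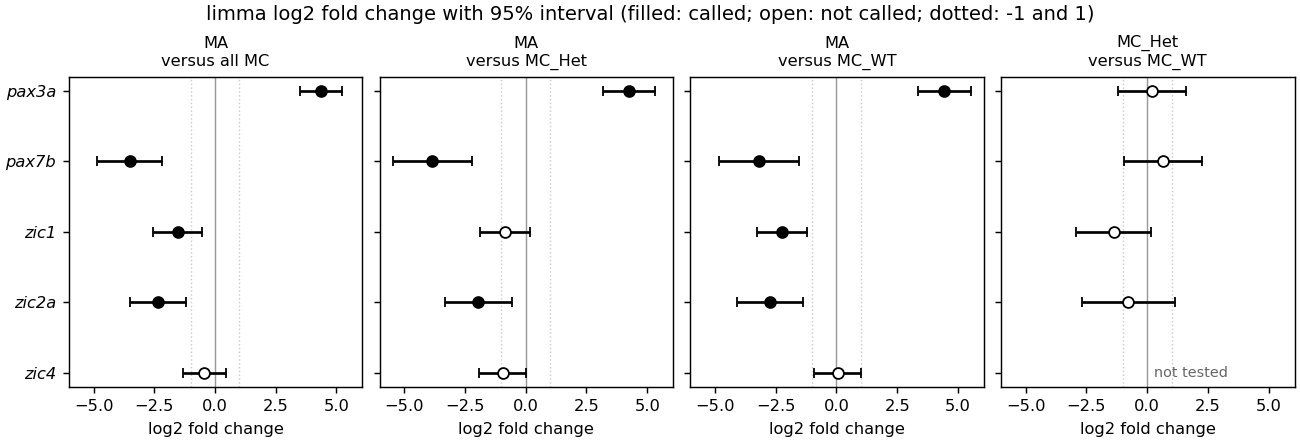
Limma log2 fold change (x axis) with its 95% interval for the 5 genes tested in the 3 contrasts of MA and the 4 of them tested between MC_Het and MC_WT, where *zic4* was not, with filled points for called genes, open points for the others and dotted lines at -1 and 1. *pax3a* lies near 4.35 in the 3 contrasts of MA, *pax7b* between -3.84 and -3.19, and all intervals of MC_Het over MC_WT include 0.

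The comparison of MC_Het with MC_WT asks what the heterozygous BRAF and p53 alleles did before transformation. 0 of the 4 tested genes were called (*pax3a*, *pax7b*, *zic1* and *zic2a*), beside 0.514% of all 13044 tested genes. At an unadjusted p under 0.05 the count was also 0 in limma, edgeR and DESeq2. The log2 fold change of MC_Het over MC_WT was 0.19 for *pax3a* (95% interval -1.21 to 1.58) and 0.65 for *pax7b* (-0.97 to 2.27). For *zic2a* it was -0.78 (-2.69 to 1.13) and for *zic1* -1.39 (-2.94 to 0.17). These intervals are wide, and each includes a change of more than 2-fold in at least a single direction, so 3 libraries a group do not show that the genotypes were alike. MC_Het and MC_WT also differ in *mitfa* genotype, which cannot be told apart from the BRAF and p53 alleles.

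The set was next placed among 31 genes of neural plate border and crest specification, of which 26 were in the table and 19 were tested. 6 rose and 7 fell in MA relative to all melanocytes and 6 were not called, with a median log2 fold change of -0.62 beside 0.04 over all genes. The 3 with the largest rise were *tfap2e*, an AP-2 factor gene (log2 fold change 4.67, adjusted p = 5.03e-08 in limma), *sox10*, the crest and pigment lineage regulator with which Pax3 acts on Mitf in mammals (4.24, adjusted p = 5.15e-06), and *mycn* (3.39, adjusted p = 8.29e-06). *tfap2a*, another AP-2 factor gene and the most abundant of the list, also rose (2.60, adjusted p = 4.03e-06 in limma). The largest falls were those of *dlx5a* (log2 fold change -3.69, adjusted p = 2.73e-06), *sox9b* (-3.02, adjusted p = 5.77e-06) and *dlx4a* (-2.85, adjusted p = 1.69e-05, all in limma). Dlx genes mark the border and later the skeletal crest and epidermis, and *sox9b* the skeletal crest.

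**Figure D5:**
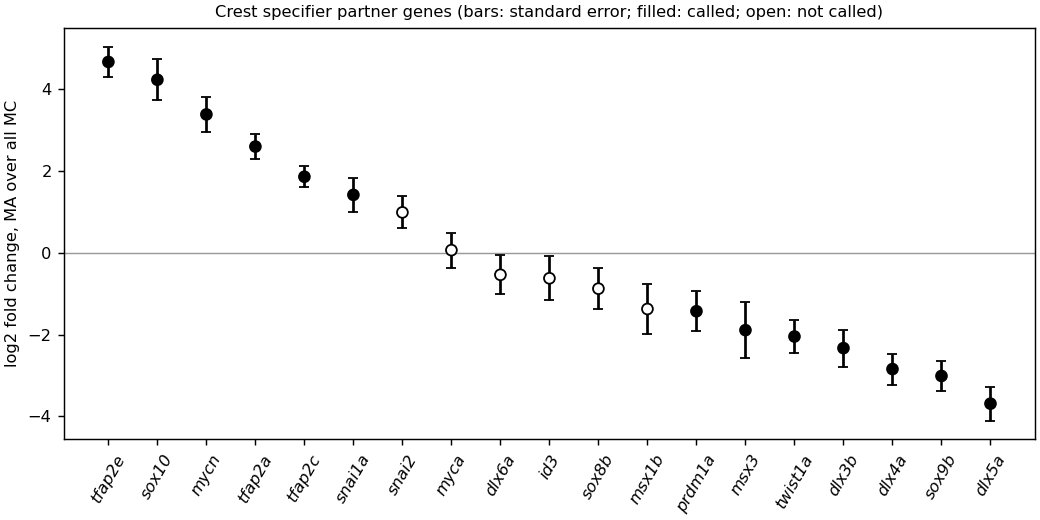
Limma log2 fold change of MA over all melanocytes (y axis) for the 19 tested partner genes of crest specification, ordered from the highest to the lowest, with bars for the standard error, filled points for the 13 called genes and open points for the others. *tfap2e*, *sox10* and *mycn* lie at the upper end, from 4.67 to 3.39, and *dlx4a*, *sox9b* and *dlx5a* at the lower end, from -2.85 to -3.69.

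The leading partners were picked for the largest called changes in this same contrast, so a gap between their groups carries no further weight. Of all 14706 tested genes, 12.5% were higher in all tumors than in all melanocyte libraries and 18.6% were lower. *sox10* was at 440.5 to 681 rescaled CPM in MA and 3.97 to 74.7 in melanocytes, and *tfap2e* at 182.5 to 392.5 in MA and 3.08 to 23.7 in melanocytes. *dlx5a* was at 0.040 to 0.420 rescaled CPM in MA and 4.86 to 24.1 in melanocytes. Relative to MC_WT 7 of the 19 rose and 7 fell, relative to MC_Het 5 rose and 6 fell, and 0 of 18 were called between MC_Het and MC_WT.

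Among 17 other Zic, Pax and Gli genes, 15 were in the table and 5 were tested. 3 rose in MA relative to all melanocytes (*pax8*, *pax2a* and *gli2a*), 1 fell (*gli3*) and 1 was not called (*pax9*). *pax8*, a Pax gene of the other Pax2/5/8 subfamily that is known from kidney, thyroid and ear, had 40.0, 0.042, 136, 78.0 and 45 rescaled CPM in MA, against 0.133, 0.57 and 0.548 in MC_Het and 0.365, 0.060 and 0.121 in MC_WT. It was high in 4 tumors and at 1 read's level in MA2, the tumor with the highest *pax3a*, and its limma log2 fold change was 4.51 (adjusted p = 0.000685). *gli2a*, a zinc-finger factor gene of the Hedgehog pathway related to the Zic genes, rose with a limma log2 fold change of 1.54 (adjusted p = 0.00327), with mean levels of 52.5 rescaled CPM in MA and 17.6 in all melanocytes.

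Of the pigment lists, 10 of 12 tested melanophore genes rose in MA relative to all melanocytes, 1 fell and 1 was not called (median log2 fold change 2.13), led in level by the melanin synthesis gene *tyrp1b* and the melanosome matrix gene *pmela*. Of 6 iridophore genes, 2 rose, the purine synthesis gene *gmps* and *alx4a*, 0 fell and 4 were not called, *pnp4a* among them (median 0.72). The melanophore gene sum, whose part in the *pax3a* level was not tested, was 4006 to 12180 rescaled CPM in MA and 590 to 5925 in melanocytes, ranges that overlap. Of 7 Schwann cell genes, 2 rose, among them *fabp7a*, 4 fell, among them the myelin gene *mbpb*, and 1 was not called (median -2.18).

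The remaining lists fell nearly as a whole. All 9 tested keratinocyte genes, 13 of 14 fibroblast and osteoblast genes and 9 of 11 macrophage and T cell genes fell in MA relative to all melanocytes, with medians of -7.48, -3.64 and -3.05. *pax7b*, *zic1* and *zic2a* moved in the same direction as these lists. Among melanocyte libraries the keratinocyte sum was highest in MC_WT1 (116400) and lowest in MC_Het1 (60210), the macrophage and T cell sum was highest in MC_WT2 (1815), which also had the highest *pax7b* and *zic1*, and the fibroblast and osteoblast sum was highest in MC_Het2 (5355), second in MC_Het1 (3204) and lowest in MC_WT2 (1109). Their part in the result was not tested.

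The pattern of each tested gene over the 11 libraries was compared with that of all 14706 tested genes by the root mean square difference of log2(rescaled CPM + 1), after centring each gene. Nearest to *pax3a* were *tp53i11b* (0.46), *cxxc5a*, a CXXC zinc-finger gene (0.47), and *kctd1*, a BTB domain gene whose product represses AP-2 factors in mammals (0.48), beside a median over all genes of 2.37. *cxxc5a* had mean levels of 132 rescaled CPM in MA, 6.55 in MC_Het and 5.42 in MC_WT.

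Nearest to *pax7b* were *soul5*, of the heme-binding SOUL family (0.50), *vat1* (0.72) and *g0s2*, whose product blocks lipid breakdown in mammals (0.73), beside a median of 2.22. *soul5* had mean levels of 3.04 rescaled CPM in MA, 49.3 in MC_Het and 42.8 in MC_WT. Nearest to *zic2a* were *tmem26b* (0.41), *si:dkey-33c9.6* (0.42) and *ankk1* (0.49), beside a median of 1.68. For *zic1* they were *ppp1r3ca*, a glycogen-targeting phosphatase subunit gene (0.33), *si:dkey-28n18.9* (0.35) and *si:dkeyp-74a11.1* (0.37), beside 1.37, and for *zic4* *adgre18* (0.35), *si:dkey-35i13.1* (0.39) and *slc9a6a* (0.39), beside 1.09. The last 2 sets rest on low counts, where small differences come easily, and the likeness is a description with no test.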

How the data were processed

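The authors aligned single-end reads of SMARTer cDNA to GRCz11/danRer11 with STAR, and the deposited tables give CPM and RPKM for each gene. The methods name RSEM on RefSeq genes and DESeq2, whereas the table lists Ensembl genes. The counter, multi-mapping reads and strand are not given in the sources used here. Repeated identifiers (236) were used once, and 0 sample columns were left unused. All low CPM values (100%, tolerance 0.02) were whole multiples of 1 read, and whole reads were recovered from them. Amplified reads are not independent molecules, so depth bounds counting error only. CPM were divided by median-of-ratios factors over 11 libraries, and limma 3.58.1 (R 4.3.3, trend, 2-sided) was run over genes reaching 1 CPM in 3 or more libraries of the fit, on log2(rescaled CPM + 1). RPKM were divided by the same factors and used for levels between genes. MA was compared with all melanocytes (2 groups), with each genotype (3 groups), and MC_Het with MC_WT (6 melanocyte libraries). Each tumor entered as a sample, although the estimated correlation of tumors of 1 fish was 0.463 with 2 groups and 0.408 with 3 groups. edgeR 4.0.16 and DESeq2 1.42.0 on recovered reads, the CPM as deposited, TMM, other pseudocounts, no filter, RPKM, fish averages, a fish block, a replicate block and each library left out were alternatives. Fits were tested on simulated counts. For MA against all melanocytes limma recovered 183 of 200 changed genes, with 15 false calls. For MC_Het against MC_WT it recovered 117 of 199, with 14 false calls. The simulation had the same spread for all genes, no tumors of a shared fish and no changed genes near 0. Recovery for genes as low as the Zic genes here was therefore not measured. Named genes were all members, the 3 genes nearest to each tested member, the 2 most abundant genes of each list and the 3 partner genes with the largest called change in each direction, and *aox5*, *mitfa*, *myog*, *myod1*, *myf5*, *neurod1*, *neurog1*, *elavl3* and *pax2a* were chosen after their values were seen. Members and lists were chosen with earlier results of these data known. Genes of a list that are named only to account for its counts follow those counts, and the measured xanthophore and neural genes are all named. *meox1*, *met*, *lbx1a*, *six1b*, *cdh15* and *myf6* were also named after their values were seen.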

Additional observations from a re-analysis of the deposited data

Results flagged for a closer look

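In 5 of the 16 groups of 4 to 10 libraries that were examined, over the measured genes in MA and in all melanocytes, the highest library stood farther from the next than Dixon's 95% critical value allows. Chance flags about 1 group in 20 of normally distributed values, and the rescaled CPM used here, without a log, were not tested for that. The rate does not apply to *zic1*, *pax3b* and *zic5* in MA, where a single tumor had reads and the others had 0. Nor does it apply to *zic2b* in melanocytes, where 4 of 6 libraries had 0 reads. *zic2a* was highest in MA1 at 0.884 rescaled CPM (22 reads), with the next tumor at 0.152 and a gap of 0.828 of the range. *zic1* was highest in MA2 at 0.294 rescaled CPM (7 reads), with 0 in the other tumors. *zic2b* was highest among melanocyte libraries in MC_WT2 at 1.51 rescaled CPM (25 reads), with the next at 0.068 and a gap of 0.955 of the range. *pax3b* in MA1 (0.0402 rescaled CPM) and *zic5* in MA1 (0.0402 rescaled CPM) rest on 1 read each, which is below the limit of 3 reads.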

How the results depend on the processing

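The log2 fold changes that were called, 11 in all, were recomputed under 262 alternatives in total: 245 kept the call, 17 lost it and 0 reversed. At an adjusted p under 1e-6 the members called were 1 relative to all melanocytes, 0 relative to MC_Het and 0 relative to MC_WT, which accounts for 10 of the 17. The others were 5 of *zic2a* relative to MC_Het (no filter, adjusted p = 0.0593; fish averaged, without MC_Het1, without MC_Het3, and without MC_WT2 and MC_Het1, 0.0800) and 2 of *zic1* relative to all melanocytes (fish averaged, and RPKM, log2 fold change -0.98). With each library left out, the members called stayed at 4 to 4 relative to all melanocytes and to MC_WT, at 0 to 0 between genotypes, and at 2 to 4 relative to MC_Het. Signs reversed in 4 uncalled log2 fold changes. With each library left out these ranged from -0.12 (without MC_WT3) to 0.19 for *zic4* in MA over MC_WT, and, in MC_Het over MC_WT, from -0.14 (without MC_WT3) to 0.45 for *pax3a*, from -0.011 (without MC_WT3) to 1.52 for *pax7b* and from -1.74 to 0.28 (without MC_Het2) for *zic2a*. The cause was not tested.

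The replicate block left the members called at 4, 3, 4 and 0. MC_Het and MC_WT libraries of the same number did not deviate together (correlations -0.013, -0.12 and -0.068). Pairs of unlike number ranged from -0.051 to 0.124. No pairing by number was seen, although so few pairs cannot exclude it. Between MC_Het and MC_WT, 67 genes of the whole table were called, 8 with the replicate block, 41 with edgeR, 42 with a pseudocount of 0.1, 7 without a filter, 0 at 1e-6 and 513 with DESeq2, and 7 to 245 with each library left out, the most without MC_WT2. Without both MC_WT2 and MC_Het1, 364 were called. For MA relative to all melanocytes 762 genes were called at 1e-6, against 6456 at 0.05. On the CPM as deposited the median log2 fold change of all genes was 0.58, against 0.04, and 64.6% of calls were higher in MA, against 42.4%. *pax3a* was then at 4.88 and *pax7b* at -3.08, both still called. Depth limits *pax3b*, *zic2b* and *zic5*.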

Other observations

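*pax2a*, of the same subfamily as *pax8*, had 84.8, 0.252, 52.6, 5.22 and 19.7 rescaled CPM in MA, against 2.46, 1.30 and 1.58 in MC_Het and 0.658, 0.785 and 0.422 in MC_WT. MA2 was again the lowest tumor, as for *pax8*, and its *pax2a* lay below all melanocyte libraries.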
